A study of Bos taurus with 10 samples.

Results

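The abomasum library was compared with the libraries of the 9 other bovine tissues at autosomal CG sites. The sites were chosen by coverage alone: the chromosome, position and strand had to match and each of the 10 libraries had to hold at least 8 reads. This left 51227 shared sites of the 452664 autosomal CG sites found in any library, or 11.3 %. Abomasum had at least 20 reads at 10128 of them (19.8 %), and the levels, distances, DMCs, specific sites and regions were also computed there. DNA methylation had been measured by reduced representation bisulphite sequencing (RRBS), with 1 library for each tissue and so without replicates. The abomasum, ileum, frontal cortex and mammary gland parenchyma came from juvenile females, and the uterus, skeletal muscle, nucleated blood cells and lactating mammary gland (lactation day 90) from adult females. The testis was from an adult male and the rumen from a male fetus. All animals were the Hereford cow L1 Dominette or her relatives, and since the sources used here do not say which animal gave which tissue, tissue, animal, sex, stage and library cannot be told apart.

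The abomasum is the glandular stomach of ruminants, whose lining secretes acid and pepsinogen, while the rumen is a forestomach without glands. In mammals DNA methylation is found mainly at cytosines followed by guanine (CG sites), is mostly low in CG islands and mostly high in repeated sequence. RRBS cuts DNA at CCGG with MspI and reads the ends of the short fragments, so most of its sites lie close to CCGG in CG-rich DNA. The methylation level of a site is the share of its reads that kept a cytosine after bisulphite treatment. No cell type marker was checked, since expression data were not analysed here and the positions (UMD3.1) were not tied to genes.

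Over all autosomal CG sites of a library, abomasum had the highest mean level of the 10 tissues, 37.3 %. The other 9 tissues ranged from 29.6 % in rumen over a median of 32.5 % to 36.9 % in testis, with a mean of 32.4 % ± 2.48 (SD, n = 9 libraries). The difference of 4.92 points gave p = 0.10 in the two-sided exact permutation test of 1 tissue against 9, which is the smallest p this design allows. At the 51227 shared sites, abomasum was at 28.1 % and the other 9 tissues at 28.2 % ± 2.14 (SD, n = 9 libraries). They ran from 24.1 % in testis over a median of 28.1 % to 31.8 % in nucleated blood cells, so that abomasum held the sixth place in the middle of the range. The difference fell from 4.92 points over all sites to -0.144 points at shared sites (exact permutation p = 0.80). The remaining 5.06 points therefore came from sites that not all libraries covered. At the shared sites with at least 20 abomasum reads the levels were 55.8 % in abomasum and 55.7 % ± 6.15 in the others, a difference of 0.121 points (exact permutation p = 0.80). Where all 10 libraries had at least 20 reads (7147 sites) abomasum was at 52.3 % and the others were at 52.4 % ± 5.65. When only sites common to abomasum and 1 other tissue were used, the difference ranged from -3.97 points against nucleated blood cells to 5.40 points against testis. At 95338 shared non-CG cytosines the level was 1.32 % in abomasum and 1.39 % ± 0.0649 in the others.

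**Figure D1:**
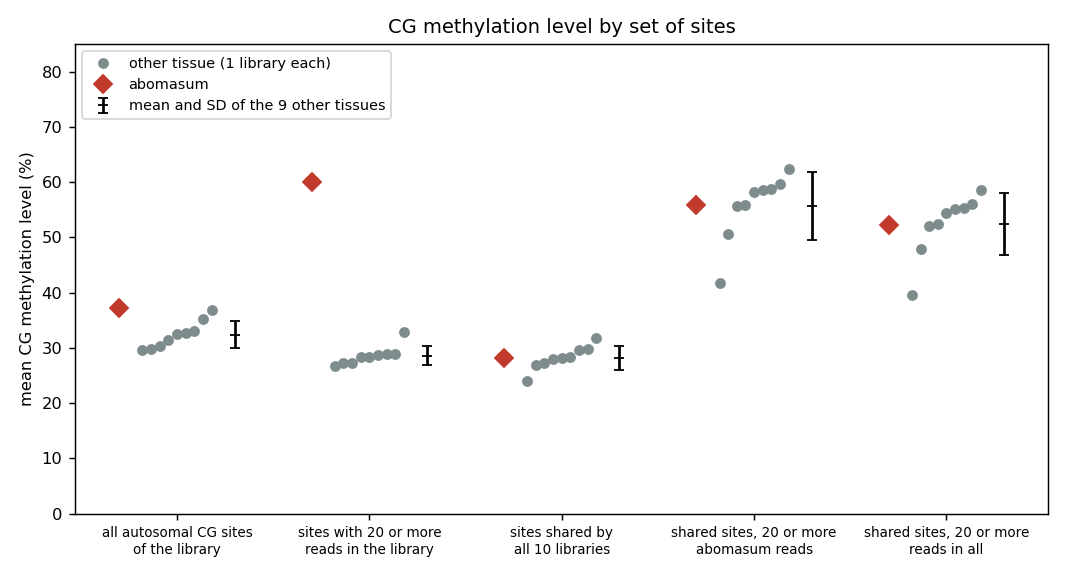
Mean CG methylation level (%) of each library in 5 sets of autosomal sites: red diamonds are abomasum, grey circles the 9 other tissues (1 library each), and black bars their mean and SD. Abomasum stands above all others over its own sites (37.3 %) and its own sites with at least 20 reads (60.1 %), and lies within their range in the 3 sets of shared sites.

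A higher read minimum in each library did not bring abomasum closer to the others. At sites with at least 20 reads in the library itself, abomasum stood at 60.1 % and the other tissues at 28.6 % ± 1.80, with a highest value of 32.9 % in nucleated blood cells (exact permutation p = 0.10). Only 10.6 % of the abomasum sites had that many reads, against 39.9 % to 70.8 % of the sites of the other libraries.

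The abomasum library combined many sites with few reads. The reads summed over its cytosines were 16125651, the fewest of the 10 libraries (21172477 to 40089443 in the others), over 631340 cytosines with at least 8 reads. It covered 195766 autosomal CG sites, second to the 231485 of testis, while the median over the other libraries was 140858. At shared sites its median coverage was 12 reads, against medians from 32 reads in mammary gland parenchyma to 50 in ileum. Of the abomasum sites 26.2 % were shared by all 10 libraries and 15.5 % were found in 2 to 9 libraries. The other 114252 sites, 58.4 %, were private, meaning that no other library had 8 reads there. Since sites below 8 reads are not in the deposited values, a private site may still have had some reads elsewhere. Testis had a similar share of private sites (55.6 %), and the other 8 tissues had 704 to 10078 private sites each.

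**Figure D2:**
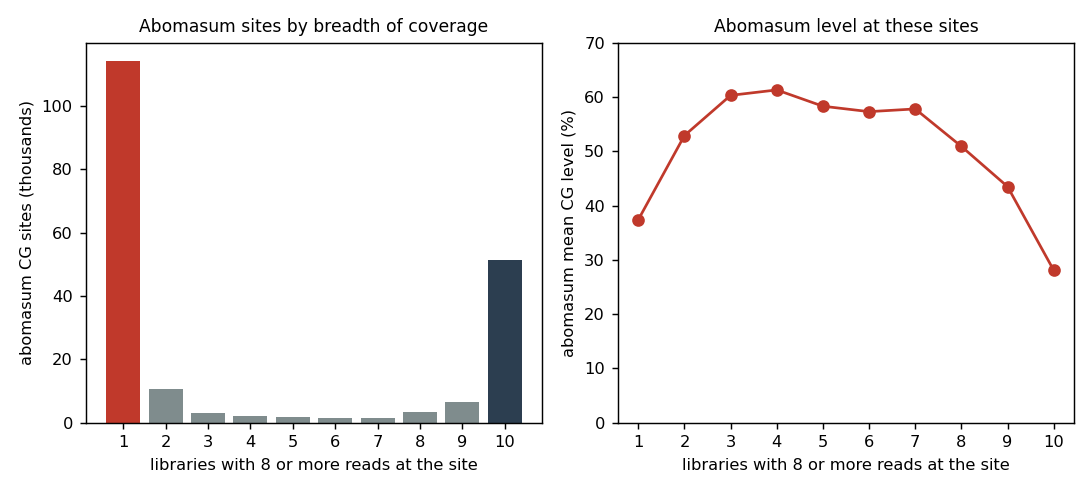
Left, the number of abomasum CG sites by the number of libraries that covered the site with at least 8 reads; right, the mean abomasum level (%) at these sites. The counts are largest at the ends, with 114252 private and 51227 shared sites, and the level is 37.4 % at private sites, 61.3 % at sites of 4 libraries and 28.1 % at shared sites.

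Private sites of abomasum had a mean level of 37.4 %, between shared sites (28.1 %) and sites found in 2 to 9 libraries (52.7 %). Their coverage was shallow. The median was 9 reads, 67.6 % had 8 or 9 reads and 0.944 % had at least 20. A level at 8 reads moves in steps of 1 read in 8. The private sites of the other tissues were at 36.9 % to 50 %, so the abomasum value lay at the lower end. Among the sites that abomasum shared with exactly 1 other tissue, 8435 were shared with skeletal muscle, against 89 to 834 with each other tissue. At these 8435 sites abomasum was at 56.3 % and skeletal muscle at 55.1 %.

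Private sites also lay in other places. The cytosine of a CCGG made up 3.02 % of the private sites and 12.9 % of the shared sites. Over all its own sites abomasum had 7.46 % at CCGG, below the range of 16.2 % to 27.3 % in the other tissues. Of the private abomasum sites 22.1 % lay within 50 bp of a CCGG covered in any library, at a median distance of 284 bp. The private sites of skeletal muscle came closest, with 28.5 % within 50 bp, while the other 8 tissues had 67.9 % to 93.9 %. Over all sites of a library the share was 49 % in abomasum and 88.5 % to 96.6 % elsewhere. Private abomasum sites more than 500 bp from a covered CCGG numbered 47495 and had a level of 47.1 %. Those over 100 and up to 500 bp away were at 26.5 %. Closer to a covered CCGG the level was 45.5 % at 0 to 10 bp and 33.5 % at 11 to 25 bp. It was 30.4 % at 26 to 50 bp and 30.9 % at 51 to 100 bp.

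Where private sites lay beside shared ones, their levels were close. For 8376 private sites within 100 bp of a shared site, the mean level was 27.2 %, and the shared sites around them were at 29.3 % in abomasum and 29.2 % in the other tissues. The 78945 private sites without a site of another tissue within 100 bp were at 39.9 %.

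Shared sites with 20 or more abomasum reads were more methylated than the other shared sites in all 10 tissues, by unequal amounts. At sites with 8, 9, 10 to 12 and 13 to 19 abomasum reads, abomasum was at 19.4 %, 22.3 %, 21.4 % and 21.4 %. With 20 to 49 reads it was at 44.8 % and with 50 or more at 66.9 %. The 9 other tissues had means of 19.7 %, 22.6 %, 21.6 %, 21.6 %, 45 % and 66.5 % at the same sites. The difference between abomasum and the others stayed between -0.370 and 0.383 points in these 6 classes, each less than the SD of the other tissues there (1.28 to 7.46 points). From 13 to 19 reads to 20 to 49 reads the level was higher in all 10 tissues, and in none of the 6 classes did abomasum leave the range of the others. When sites were weighted by their reads, the shared-site level of abomasum was 54.6 % against 45.2 % ± 5.24, a difference of 9.40 points.

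The sites with many abomasum reads differed in sequence. The bases around each site were put together from the 5-base contexts deposited for all covered cytosines. A site was called recurring when a stretch of 20 bases over it was found at more than 1 place among these bases, on either strand. This was possible at 47716 shared sites, of which 17.9 % were recurring. The share was 6.16 % at sites with 8 or 9 abomasum reads, 11.4 % with 13 to 19, 48.0 % with 20 to 49 and 74.2 % with 50 or more. Recurring sites had a median of 29 abomasum reads and sites found once a median of 11, while the median of the other tissues was 46 and 39 reads. At recurring sites the level was 50.5 % in abomasum and 50.5 % ± 5.67 in the others, and at sites found once it was 21.5 % and 21.8 % ± 1.51. At the 3368 sites found once that had at least 20 abomasum reads, abomasum was at 34.2 % and the others were at 34.4 % ± 3.44. Of the private abomasum sites 9.18 % were recurring, while among those shared with skeletal muscle only it was 55.4 %. The counts are lower limits, since only covered bases were searched and only exact matches counted. A site found once may therefore still lie in repeated sequence.

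**Figure D3:**
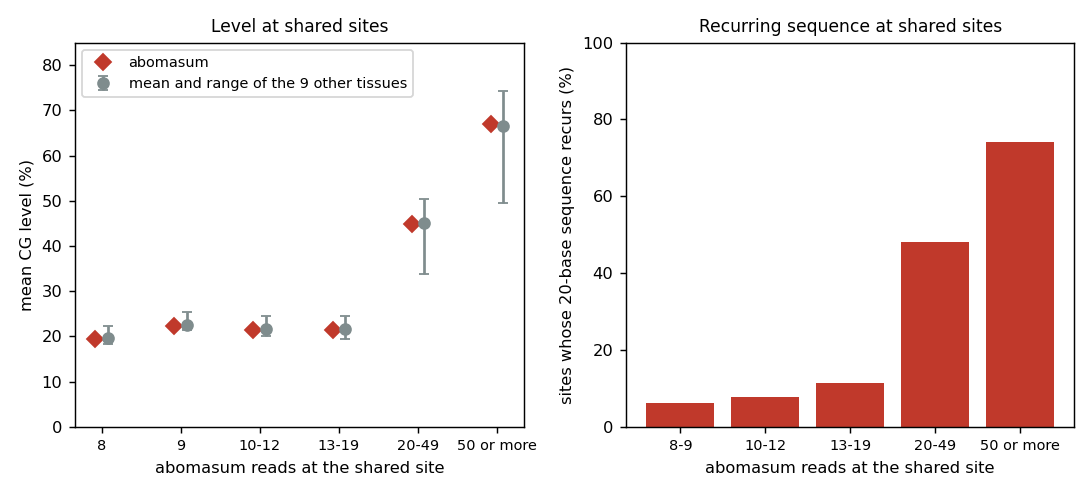
Left, mean CG level (%) at shared sites by class of abomasum reads, for abomasum (red diamonds) and the 9 other tissues (grey, mean and range); right, the share of shared sites (%) whose 20-base sequence recurred among the covered bases. The abomasum level is 19.4 % to 22.3 % up to 19 reads and 66.9 % at 50 or more, with the other tissues beside it, and the recurring share rises from 6.16 % to 74.2 %.

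Shared sites were also grouped by the mean level of the 9 other tissues. At the 27685 sites below 5 %, abomasum had a level of 0.922 % and the others of 1.05 %. In the 7 classes of level, the abomasum difference ran from -1.41 points at sites above 95 % to 0.710 points at sites between 60 and 80 %. In each class it lay within the differences of each other tissue from the mean of its 9 remaining tissues. The classes were set by the other tissues without abomasum, so these differences are not fully like the abomasum difference. Abomasum had no methylated read at 54.7 % of the shared sites, above the 33.4 % to 46.3 % of the other tissues. After the reads of all libraries were thinned at random to the lowest number at each site, the share was 55.0 % in abomasum and 52.9 % ± 2.91 in the others. On single chromosomes abomasum was lower than the mean of the others on 20 of 29 autosomes and higher on 9, with differences from -0.778 points on chromosome 13 to 1.04 points on chromosome 12.

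Distances between tissues were computed as the root mean square difference of level over the shared sites, less the binomial sampling variance of both libraries. Rumen was the tissue nearest to abomasum, at 6.97 points, followed by uterus at 7.29 and skeletal muscle at 7.53. Ileum was at 8.02 points, mammary gland parenchyma at 8.22 and frontal cortex at 8.38. Lactating mammary gland (9.46), nucleated blood cells (11.4) and testis (12.8) were farthest. No interval was computed for these distances, and neighbours in this order differed by little. With at least 20 abomasum reads skeletal muscle became the nearest tissue at 7.46 points and rumen the second at 9. At sites found once rumen was again nearest (6.48), with uterus at 6.65, but nucleated blood cells became the farthest tissue (11.3) and testis the next (10.3). Without the correction, the distance of abomasum to the others averaged 11.5 points and was the sixth smallest of the 10 tissues. With the correction it averaged 8.90 points and was the third smallest. At the sites with at least 20 abomasum reads the corrected average was 11.2 points, again the sixth smallest. The sampling SD of a level was 5.92 points in abomasum and 3.83 to 4.70 in the others.

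**Figure D4:**
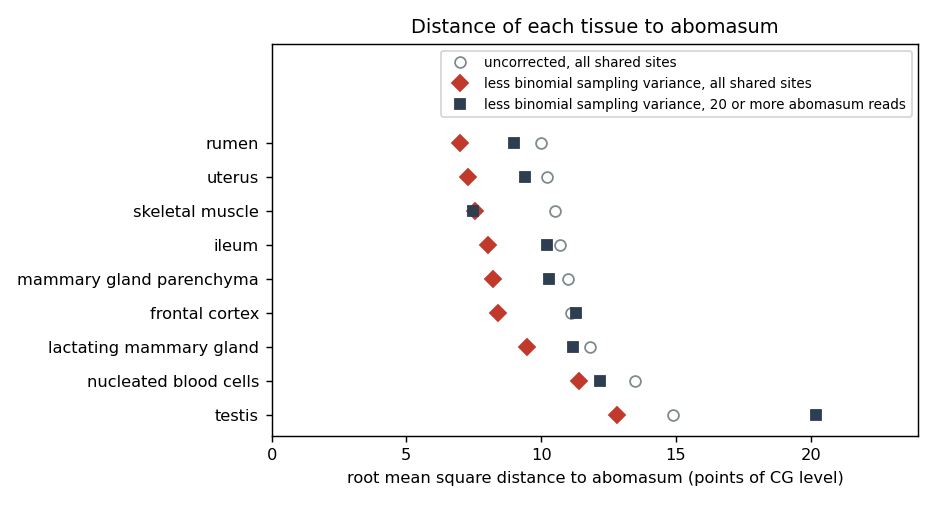
Root mean square distance (points of CG level) from abomasum to each of the 9 other tissues: open circles without correction and red diamonds after subtracting sampling variance at all shared sites, dark squares corrected at sites with at least 20 abomasum reads. Rumen is nearest at all shared sites (6.97 points) and skeletal muscle at the deeper sites (7.46 points).

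Differentially methylated cytosines (DMCs) between abomasum and each tissue had to pass Fisher's exact test of the methylated against the unmethylated reads (Benjamini-Hochberg q below 0.01) and to differ by 25 points or more. With 1 library for each tissue this compares libraries. The 9 comparisons share the abomasum library. Skeletal muscle had 141 DMCs with abomasum, 0.275 % of the shared sites. Rumen had 166 (0.324 %), uterus 205 (0.400 %), mammary gland parenchyma 227 (0.443 %), frontal cortex 320 (0.625 %) and ileum 327 (0.638 %). Lactating mammary gland had 443 (0.865 %), nucleated blood cells 830 (1.62 %) and testis 1705 (3.33 %). Across the 9 comparisons 2880 sites, 5.62 % of the shared sites, were a DMC at least once. Abomasum was higher at 1602 of the 1705 sites that differed from testis and at 231 of the 320 that differed from frontal cortex. It was lower at 637 of the 830 sites that differed from nucleated blood cells. The directions were nearly even against rumen, with 82 sites higher and 84 lower. With at least 20 abomasum reads 1.32 % of the sites differed from skeletal muscle, 1.83 % from rumen and 17.8 % from testis.

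The median number of DMCs with another tissue was 320 for abomasum, the lowest of the 10 tissues (430 in uterus came next). After all libraries were thinned to the lowest reads at each site, abomasum had a median of 89, and 4 tissues had lower medians, from 32 in uterus to 77 in mammary gland parenchyma. The thinned counts with abomasum ran from 35 in skeletal muscle to 678 in testis.

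Abomasum-specific sites were those that were a DMC against all 9 tissues in the same direction. Abomasum had 16, of which 7 were higher (0.0137 % of the shared sites) and 9 lower (0.0176 %). Under the same rule testis had 342, nucleated blood cells 87 and lactating mammary gland 39, and the other 6 tissues had 0 to 14. After thinning to equal reads abomasum had 7, testis 103 and lactating mammary gland 8, while no other tissue, nucleated blood cells included, had more than 1. Thinning left a median of 12 reads at a site. The thinned counts therefore rest mainly on sites that all libraries covered deeply, and do not rank the tissues over all shared sites. Among the shared sites with at least 20 abomasum reads 20 were called (0.197 %), 9 higher and 11 lower, and all 16 were among them. All 16 had that many reads, so the same reads were tested again among fewer sites and this is no separate check. No site was called jointly for abomasum and rumen, or for abomasum and ileum, against the other 8 tissues. Most pairs of tissues had 0 joint sites under this rule, uterus with ileum among them, and the most were 6, in testis with ileum. A single site was called jointly for abomasum and skeletal muscle, at which both were higher.

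The 16 sites lay on 10 chromosomes, and each had at least 50 abomasum reads, with a median of 87 and a highest of 581. At that depth 5038 shared sites (50 or more abomasum reads) were available. Recurrence could be assessed at 12 of the 16, and 9 of the 12 (75 %) were recurring. This was close to the 74.2 % of all assessed shared sites with 50 or more abomasum reads. Among sites specific to another tissue the share varied. It was 73.8 % in testis, but 0 of 83 assessed sites in nucleated blood cells and 0 of 14 in frontal cortex. Lactating mammary gland had 6 of 34 (17.6 %), rumen 1 of 3, skeletal muscle 1 of 2, ileum 0 of 1 and uterus 3 of 3. Of the 16, 7 were the cytosine of a CCGG. The rate of abomasum-specific calls was 0.106 % at CCGG cytosines and 0.0202 % at other CG cytosines. The study counts uniquely mapped reads, but whether the deposited counts hold these alone is not given in the sources used here. The part of recurrence in the calls was not tested.

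**Figure D5:**
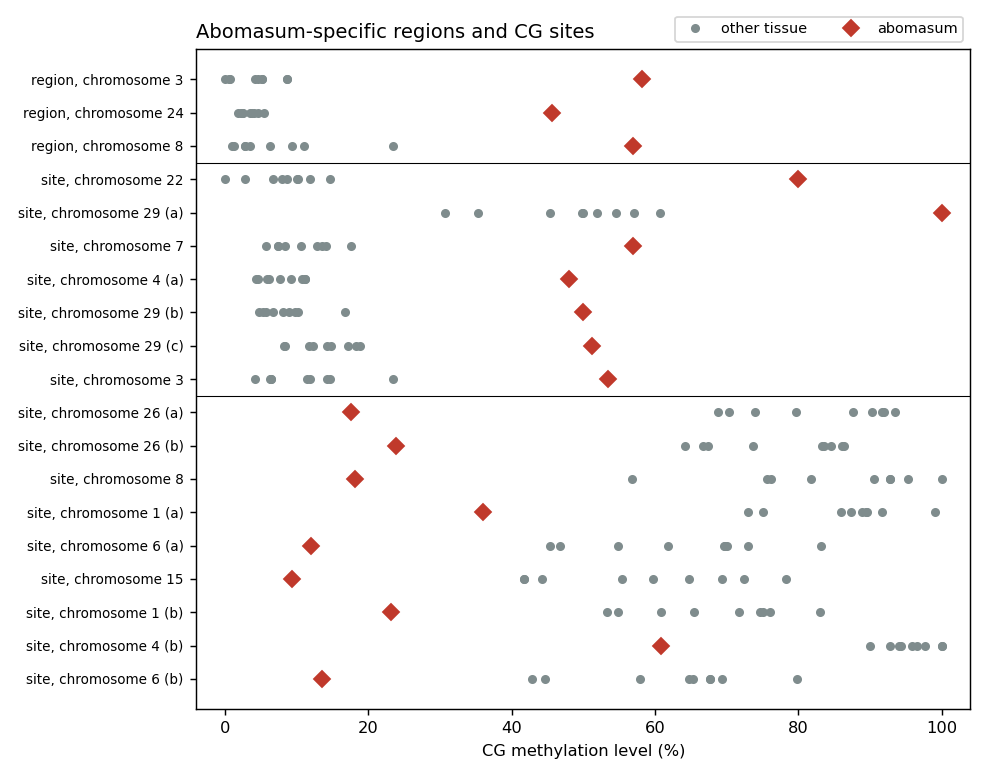
CG methylation level (%) of abomasum (red diamonds) and the 9 other tissues (grey circles, 1 library each) at the 3 abomasum-specific regions and the 16 abomasum-specific sites, named by chromosome. Horizontal lines separate regions, sites higher in abomasum (7) and sites lower in abomasum (9); in each row the abomasum value lies outside the range of the others by at least 25 points.

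Reference bases around several of these sites are printed because the sites turned out to lie in related sequence. They run 5′ to 3′ on the forward strand of UMD3.1, and capitals mark the CG that was called.
chr22:37932826-37932874, called on the minus strand: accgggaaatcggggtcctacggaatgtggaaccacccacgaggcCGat
chr6:45737525-45737598, both CG called on the minus strand: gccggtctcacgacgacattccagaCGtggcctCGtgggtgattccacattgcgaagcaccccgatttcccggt
chr15:26579184-26579243, called on the plus strand: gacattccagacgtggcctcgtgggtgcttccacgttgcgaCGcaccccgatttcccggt
chr3:82836817-82836876, called on the minus strand: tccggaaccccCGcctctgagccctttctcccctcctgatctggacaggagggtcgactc
chr4:98754103-98754162, called on the plus strand: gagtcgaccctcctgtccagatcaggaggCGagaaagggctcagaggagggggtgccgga
chr4:27706085-27706132, called on the plus strand: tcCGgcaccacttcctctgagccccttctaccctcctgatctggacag
The stretches on chromosomes 6 and 15 matched at 57 of 60 bases (95 %). The stretch on chromosome 22 matched the reverse complement of the one on chromosome 6 at 42 of 49 bases (85.7 %). A stretch of 20 bases over the called sites on chromosome 6 was found at 313 places among the covered bases. The called sites on chromosomes 22 and 15 were nevertheless classed as found once, since only exact matches of 20 bases counted. The stretch on chromosome 3 matched the reverse complement of the one at chr4:98754103 at 57 of 60 bases (95 %), and the one at chr4:27706085 at 42 of 48 bases on the same strand (87.5 %). These 6 stretches hold 7 of the 16 sites.

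The largest gap between abomasum and the nearest tissue was at chr22:37932872 on the minus strand. Abomasum was at 80 % (44 of 55 reads, 95 % Wilson interval 67.6 to 88.4 %), and the other tissues ran from 0 % in rumen over a median of 8.70 % to 14.6 % in skeletal muscle. The gap was 65.4 points and the largest q of the 9 pairs was 0.00569 by Fisher's exact test. At the neighbouring CG 6 bp away (chr22:37932866), the order was turned: abomasum was at 14.8 % of 54 reads and the others at 75 % to 84.1 %. At a CG 25 bp away all 10 tissues were between 0 and 6.06 %. Abomasum was thus above all other tissues at 1 site and below all of them at its neighbour. The neighbours of this and the next sites were chosen by their position after the values had been seen.

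On chromosome 26 a pair of sites 14 bp apart was lower in abomasum, with a site of the opposite direction between them. At chr26:40478041 abomasum was at 17.6 % of 85 reads and the others ran from 68.8 % in uterus over a median of 87.6 % to 93.5 % in testis. At chr26:40478055 abomasum was at 23.8 % of 80 reads and the others at 64.2 % to 86.4 %. At chr26:40478047 abomasum was at 49.4 % of 87 reads and the others at 4.17 % to 37.5 %. All lie on the plus strand, and the second is the cytosine of a CCGG. The gaps of the called sites were 51.1 and 40.4 points.

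At chr8:10202072 (plus strand, at CCGG) abomasum was at 18.2 % of 88 reads, while the others ran from 56.8 % in skeletal muscle over a median of 90.5 % to 100 % in nucleated blood cells. On the same strand, a CG 12 bp away was at 77.7 % in abomasum and between 47.8 % and 95.5 % in the others. A CG 19 bp away was at 20.4 % in abomasum and between 41.7 % and 95.5 % elsewhere, and 1 at 47 bp was at 26.7 % against 0 to 9.52 %. The minus strand of the CG at 19 bp was not set apart, with 77.1 % of 70 reads in abomasum and 33.9 % to 90.0 % in the others. At chr1:144131319 (plus strand, at CCGG) abomasum was at 36.0 % of 50 reads and the others at 72.9 % to 99.1 %.

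At chr29:19421871 (minus strand) all 132 abomasum reads were methylated, a level of 100 % (95 % Wilson interval 97.2 to 100 %). The other tissues ran from 30.7 % in testis over a median of 50 % to 60.7 % in nucleated blood cells, on 565 to 1986 reads. The site was recurring, with 37 places for its 20 bases. The other 2 called sites of chromosome 29 (chr29:19431789 and chr29:19443946) lay within 22076 bp of it and were at 50 % and 51.2 % in abomasum, with highest values of 16.7 % and 18.8 % elsewhere. The plus strand of the CG at chr29:19443946 was at 22.9 % of 35 reads in abomasum and 0 to 19.5 % in the others. Over the 159 shared sites of this stretch abomasum was at 66.8 % and the others ran from 48.8 % to 76.6 %, so the stretch as a whole did not differ.

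The remaining sites named by the size of the gap were chr7:66692525 and chr4:27706087, both on the plus strand at the cytosine of a CCGG and both recurring. At chr7:66692525 abomasum was at 56.9 % of 51 reads and the others at 5.79 % to 17.6 %. The minus strand of the same CG was at 66.7 % in abomasum and at 81.7 % to 98.4 % in the others. At chr4:27706087 abomasum was at 48.0 % of 75 reads and the others at 4.29 % to 11.1 %, and the minus strand was at 84.4 % in abomasum and 63.9 % to 94.9 % elsewhere.

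The last 2 sites were low on 1 strand and high on the other in all 9 other tissues, which was examined over all shared CGs with both strands covered. For each tissue, the CGs were taken whose strands differed by at least 50 points in the mean of the 9 remaining tissues, so that the tissue's own values did not enter the choice. For abomasum these were 91 of the 248 CGs that hold a CCGG cytosine. On the lower strand abomasum was at 31.1 % and the other tissues at 13.3 %, and on the higher strand at 85.6 % and 86.0 %. For the other 9 tissues, measured the same way, the lower strand was at 9.73 % in testis to 18 % in skeletal muscle. The strands of abomasum differed by 54.6 points, less than the 61.4 (testis) to 79.9 points (nucleated blood cells) of the others. As the highest of 10 on the lower strand and the lowest of 10 in the difference, abomasum lay outside the range of all other libraries in this measure. This measure was chosen after the sites had been seen, and what it goes with was not tested. At all 6625 shared CCGG cytosines abomasum was at 39.3 % and the others were at 39.1 % ± 2.37.

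Regions were formed from shared sites at most 100 bp apart with at least 5 sites, and reads were summed over the sites. Of 4314 regions 3 were higher in abomasum than in every other tissue (0.0695 %) and 0 were lower. Testis had 106, nucleated blood cells 25 and skeletal muscle 15, and ileum and uterus had 0. The bases of 2 of the regions are printed with the CGs of the shared sites in capitals, because all sites of a region lie closer together than the read length of 49 bases given in the study's methods. They run 5′ to 3′ on the forward strand of UMD3.1.
chr3:120474905-120474950: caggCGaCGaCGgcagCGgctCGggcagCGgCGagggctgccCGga
chr8:67921550-67921599: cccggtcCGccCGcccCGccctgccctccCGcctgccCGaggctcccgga

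The region chr3:120474910-120474948 held 8 sites, all on the minus strand. Abomasum was at 58.2 %, and the others ran from 0 % in skeletal muscle over a median of 4.61 % to 8.65 % in frontal cortex and nucleated blood cells. Abomasum was the highest tissue at all 8 sites, with 28.6 % to 71.4 %, and no other tissue exceeded 15.4 % at any of them. The region chr24:42021783-42021811 held 5 sites on the minus strand, at 45.6 % in abomasum and between 1.82 % and 5.38 % elsewhere. The region chr8:67921557-67921587 held 5 sites on the plus strand, at 56.9 % in abomasum, 23.5 % in skeletal muscle and 0.952 % to 11 % in the other 8 tissues. In all 3 regions the abomasum level was intermediate while most other tissues were near 0.

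These regions rested on few reads. The 110 summed abomasum reads of the chromosome 3 region came from 12 to 14 reads at each site, and those of the chromosome 24 and chromosome 8 regions from 9 to 12 and from 13 reads. Sites this close can be covered by the same reads, so that summed counts need not be independent. The largest q over the 9 pairs was 1.38e-13, 6.83e-09 and 0.000823 on summed reads (chromosomes 3, 24 and 8, Fisher's exact test). Single reads cannot be followed across sites in the deposited values. To approximate counting each read once, a region was given the median number of reads of its sites, at their mean level. In the same order, the largest unadjusted p over the 9 pairs was then 0.0128, 0.00779 and 0.132 (Fisher's exact test). No region then passed q below 0.01 in all pairs, while 2 of the 4314 regions had an unadjusted Fisher's exact p below 0.05 against all 9 tissues. With at least 20 abomasum reads at each site, 887 regions remained and 0 passed. The 3 regions could not be among these, since none of their sites had more than 14 abomasum reads. At the depth of abomasum the 3 regions therefore rest on summed reads.

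The effect of unequal sites was measured in windows of 1 kb that held at least 5 sites of each library and 5 shared sites. Among 4155 windows, abomasum was outside the range of the other tissues by at least 25 points in 8 (7 higher, 1 lower) when each library used its own sites, and in 2, both higher, when shared sites were used. In testis 5 windows were higher and 78 lower with its own sites, and 7 and 77 with shared sites. On chromosome 18, between 62380168 and 62477898, abomasum covered 195 sites, of which 144 were private and 25 shared. Its own sites there gave 58.6 % against 31.7 % to 44.5 % in the other tissues. The stretch was chosen with earlier results of these data known, so this difference is not a separate finding. At the 25 shared sites abomasum was at 73.8 % and the others were between 62.4 % and 77.2 %, so the difference did not hold at matched sites. Against the fetal rumen, the tissue with the lowest level over all sites (29.6 %), abomasum was at 31.2 % and rumen at 30.5 % over the 62110 sites that both covered.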

How the data were processed

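Methylation was measured by RRBS in 1 library for each of 10 tissues. The authors deposited, for cytosines covered by 8 or more reads, counts of methylated and total reads, the methylation level as a fraction from 0 to 1, the strand and the 5-base context on UMD3.1. The study's methods name SOAPaligner. The deposited p-value columns, and the columns whose meaning the sources do not state, were not used. Autosomal CG sites were matched by chromosome, position and strand. The level of a set of sites is the mean over sites. Reads summed over cytosines ran from 16125651 (abomasum) to 40089443 (testis). PCR copies cannot be told apart, so intervals and tests cover counting error only.

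Levels of abomasum and the 9 other tissues were compared by a two-sided exact permutation test. DMCs were called by two-sided Fisher's exact test with Benjamini-Hochberg adjustment over all shared sites (q below 0.01, at least 25 points), and the procedure was tested on simulated data. Regions joined at least 5 sites at most 100 bp apart. Thinning drew reads at random without replacement. The text names abomasum-specific regions by their gap (at most 12) and, outside them, at most 8 specific sites with the largest gap and at least 20 abomasum reads. Other sites were named after their values had been seen. The members, lists and rules were chosen with earlier results of these data known. No annotation of UMD3.1 was used here, so gene lists were not examined. Python 3.11.15, NumPy 2.4.6, pandas 2.3.3, numba 0.67.0, SciPy 1.17.1 and matplotlib 3.10.9 were used.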

Additional observations from a re-analysis of the deposited data

How the results depend on the processing

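With 1 library for each tissue, differences between tissues have no replicate error. No paired analysis was possible because each tissue has 1 library, and the labels give no number that would pair them. The shared-site difference of -0.144 points changed sign with at least 20 abomasum reads (0.121) and when weighted by reads (9.40). Leaving out 1 tissue gave -0.656 (without testis) to 0.302 (without nucleated blood cells), and 0.0409 without uterus and 0.0516 without ileum. The all-site difference of 4.92 points became -0.0548 over sites common to each pair. The 16 abomasum-specific sites became 5 with Bonferroni adjustment, 3 at 40 points and 7 with thinned reads. Leaving out 1 tissue gave 16 to 26, the latter without skeletal muscle. DMCs after thinning to the lower of the pair were 82 for skeletal muscle, 1052 for testis, 125 for mammary gland parenchyma, 118 for uterus, 180 for frontal cortex, 189 for ileum, 93 for rumen, 309 for nucleated blood cells and 227 for lactating mammary gland. With at least 20 abomasum reads nucleated blood cells had 422. Of the 3 regions 0 had 10 or more sites, and leaving out 1 tissue gave 3 to 4. Rumen, the nearest tissue, took place 3 by Spearman's rho (frontal cortex nearest, nucleated blood cells farthest) and place 2 with at least 20 abomasum reads. The private level of 37.4 % became 38.3 % at 10 or more reads, 59.5 % at 20 or more, and 39.9 % without a site of another tissue within 100 bp. Some alternatives were chosen after seeing the data. With all 10 libraries thinned, DMCs were 35 for skeletal muscle, 678 for testis, 77 for mammary gland parenchyma, 58 for uterus, 93 for frontal cortex, 89 for ileum, 57 for rumen, 211 for nucleated blood cells and 145 for lactating mammary gland. Specific sites were 9 without CCGG cytosines and 2 where only sites with 20 bases found once by exact match were tested. Regions were 0 when counting each read once was approximated by the median reads of a region's sites. They were also 0 with at least 20 abomasum reads at each site, where the 3 called regions were too shallow to be tested. In the shared-site level, the other choices made after seeing the data (CCGG cytosines left out, sites found once) kept the direction. The causes of these changes were not tested.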
